A study of Mus musculus with 8 samples.

Results

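The genes described here are the numbered subunit genes of the mouse proteasome, taken as every row of the deposited expression table whose symbol begins with Psma, Psmb, Psmc, Psmd, Psme, Psmf or Psmg followed by a number. The rule found 48 of the 34745 genes in the table. They were measured by poly(A)-selected RNA-seq in primary hepatocytes of wild-type male mice. Every mouse was injected with adeno-associated virus (AAV8) when 6 weeks old, and hepatocytes were isolated 4 weeks later. The virus carried GFP in the controls (AAV-GFP, 4 libraries) and mouse Trib3 in the other group (AAV-Trib3, 4 libraries). The promoter that drives either transgene is not given in the sources used here. The libraries are numbered 1 to 4 within each group, and whether a library stands for its own mouse is not stated, so p-values measure the spread between libraries, part of which may be technical. Trib3 encodes a pseudokinase of the Tribbles family that acts as an adaptor protein.

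The proteasome is the protease that degrades ubiquitin-tagged proteins. Its barrel-shaped core particle, 20S, is built from rings of alpha and beta subunits, and the catalytic sites lie on the beta subunits Psmb6 (beta1), Psmb7 (beta2) and Psmb5 (beta5). Interferon and other inflammatory signals induce the replacement subunits Psmb9 (beta1i), Psmb10 (beta2i) and Psmb8 (beta5i), which form the immunoproteasome and alter the peptides offered for presentation on MHC class I. Regulatory particles cap the core: the 19S particle, made of ATPases (Psmc genes) and non-ATPase subunits (Psmd genes), recognises and unfolds ubiquitinated proteins, whereas the Psme activators open the core without ubiquitin. Hepatocytes are rich in constitutive proteasomes and normally hold little immunoproteasome.

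The promoters of the immunoproteasome genes and of Psmb5, the constitutive counterpart of Psmb8, are shown because the comparison below turns on the contrast between these genes. Each window holds 250 bases before and 50 after the gene's start in RefSeq, 5′ to 3′ on the strand of the gene, from RefSeq on GRCm38.p6. Psmb8 lies at chr17:34197945-34198244 on the plus strand, Psmb9 at chr17:34187281-34187580 on the minus strand, Psmb10 at chr8:105938343-105938642 on the minus strand and Psmb5 at chr14:54617946-54618245 on the minus strand. Capitals mark a match to TTCNNNGAA, the gamma-activated site recognised by STAT factors, in Psmb8, and a match to TGACNNNGC, the core of the antioxidant response element recognised by NFE2-related factors, in Psmb5.
Psmb8: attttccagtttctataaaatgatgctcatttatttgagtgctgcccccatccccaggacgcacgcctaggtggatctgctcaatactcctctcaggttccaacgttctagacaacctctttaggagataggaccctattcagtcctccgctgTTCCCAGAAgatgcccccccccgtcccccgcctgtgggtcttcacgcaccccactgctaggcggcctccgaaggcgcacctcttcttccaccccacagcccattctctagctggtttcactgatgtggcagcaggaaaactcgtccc
Psmb9: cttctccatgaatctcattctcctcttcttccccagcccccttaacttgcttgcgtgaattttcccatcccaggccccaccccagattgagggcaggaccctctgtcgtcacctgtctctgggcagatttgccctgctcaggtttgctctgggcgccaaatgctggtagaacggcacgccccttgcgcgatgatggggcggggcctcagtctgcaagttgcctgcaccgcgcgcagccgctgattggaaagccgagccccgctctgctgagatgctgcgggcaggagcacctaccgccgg
Psmb10: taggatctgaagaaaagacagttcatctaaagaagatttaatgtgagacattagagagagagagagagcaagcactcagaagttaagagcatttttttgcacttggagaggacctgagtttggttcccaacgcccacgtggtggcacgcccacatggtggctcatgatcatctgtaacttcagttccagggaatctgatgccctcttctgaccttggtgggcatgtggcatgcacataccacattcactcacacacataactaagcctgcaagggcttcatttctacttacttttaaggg
Psmb5: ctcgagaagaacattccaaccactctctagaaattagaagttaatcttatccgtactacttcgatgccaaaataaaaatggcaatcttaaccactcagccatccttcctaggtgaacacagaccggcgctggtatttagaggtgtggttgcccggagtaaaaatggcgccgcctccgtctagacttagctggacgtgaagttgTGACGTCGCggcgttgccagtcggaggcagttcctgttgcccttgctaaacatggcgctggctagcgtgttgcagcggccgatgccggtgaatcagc

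Promoter windows were found for 40 of the 48 genes. Both strands were searched for these 2 motifs and for the interferon-stimulated response element, searched as GAAA, any 2 bases and GAAA. TTCNNNGAA was in the windows of Psmb8, Psmd2 and Psmg1 and in 8.3% of all 32851 promoters. The match in Psmb8 began 97 bases before the RefSeq start. That start lies 474 bases downstream of the start in the expression table for Psmb8, and 434 bases downstream for Psmb9, so both windows fall within the longer gene spans given below. For Psmb10 and Psmb5 the starts are the same. TGACNNNGC was in the windows of 6 genes, namely Psmb5, Psmb6, Psmc6, Psmd9, Psmd12 and Psme4, and in 12.4% of all promoters. The interferon-stimulated element was in those of 5 genes, Psmb3, Psmd4, Psmd9, Psme1 and Psmg4, and in 3.44% of all promoters. The Psmb9 window held none of these letters, and 275 of its bases also belong to the window of the divergent gene Tap1, a peptide transporter of antigen presentation. A match is a string of letters and not evidence of binding.

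Total counts per library ranged from 11350442 to 15361128, and the proteasome genes together took between 0.152% and 0.262% of them. AAV-GFP replicate 2 stood apart: mitochondrial genes took 32.0% of its counts, against 14.9% to 18.5% in the other libraries, and its TMM factor was 0.699. Levels are therefore given as CPM, the counts per library total after TMM scaling. As a check of the labels, Trib3 stood at 2.68, 1.10, 2.46 and 3.36 CPM in AAV-GFP replicates 1 to 4 and at 27.9, 62.6, 67.2 and 20.2 in AAV-Trib3 replicates 1 to 4. All 4 AAV-Trib3 libraries were far above all 4 controls, and the log2 fold change was 4.17 ± 0.47 (SE). The adjusted p of Trib3 was 0.0675 by edgeR's quasi-likelihood test with Benjamini-Hochberg adjustment. Transcripts of the vector and of the mouse gene cannot be told apart in these counts. Hepatocyte markers (Alb, Apoa1, Ttr and others) summed to between 77120 and 146972 CPM in every library.

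Of the 48 genes, 46 had enough counts to be tested. Psma8, an alpha subunit of the testis, had between 1 and 14 counts per library, and Psmb11, the beta subunit of thymic epithelium, had 0 in all 8 libraries. None of the 46 passed an adjusted p of 0.05 (edgeR's quasi-likelihood test, Benjamini-Hochberg over 11036 genes), and the adjusted p was 0.9995 for each. Of all genes tested 0% passed. At an unadjusted p under 0.05 there were 2 proteasome genes, Psmb8 and Psmd5, against 3.14% of all genes tested. Both had the higher mean in AAV-Trib3, a direction taken by 1.36% of all genes at this threshold, and 0 had the lower mean, against 1.78%. The groups did not overlap in 2 genes, Psmb8 with the higher and Psmd1 with the lower values in AAV-Trib3, against 2.29% of all genes (1.21% higher and 1.08% lower in AAV-Trib3). These shares are close to the background, and with scaling by library size alone the groups overlapped in all 46 genes. DESeq2's Wald test and limma-voom also placed 0 of the 46 past an adjusted p of 0.05. At an unadjusted p under 0.05 DESeq2 had 3 of them, adding Psmd1, and limma-voom had 1, Psmb8. The shares of all genes were 3.70% by DESeq2 and 3.14% by limma-voom.

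The median log2 fold change of AAV-Trib3 over AAV-GFP was -0.02 over the 46 genes and -0.01 over all genes tested. In 28 of the 46 the fold change was below 0 and in 18 above, whereas scaling by library size alone turned this into 19 below and 27 above. Below-zero fold changes made up 52.1% of all genes tested. The summed level of the proteasome genes was 2277, 2175, 2247 and 2276 CPM in AAV-GFP and 2182, 2246, 2101 and 2207 CPM in AAV-Trib3. The groups overlapped, with means of 2244 ± 47.8 and 2184 ± 61.2 CPM (SD, n = 4).

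**Figure D1:**
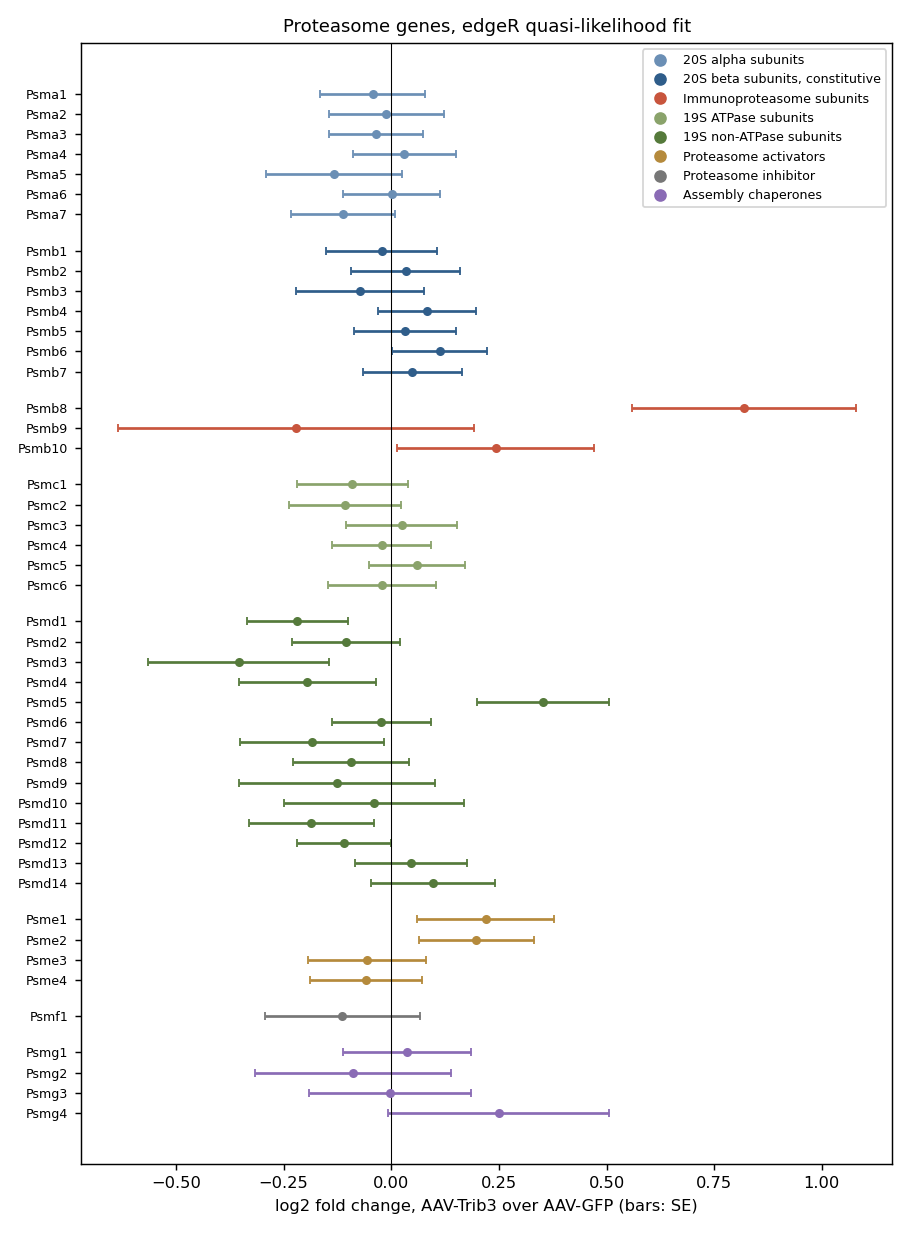
Log2 fold change of AAV-Trib3 over AAV-GFP for the 46 tested proteasome genes, by subunit class, from edgeR's fit; points are estimates and bars are SE. Most genes lie between -0.2 and 0.2, and Psmb8, at 0.82, is the point farthest from 0.

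The 3 immunoproteasome genes had unlike fold changes. Psmb8 (ENSMUSG00000024338; mm10 chromosome 17, bases 34197721 to 34201454, plus strand) encodes beta5i, the subunit with chymotrypsin-like activity. Its level was 11.2, 6.93, 6.64 and 14.8 CPM in AAV-GFP replicates 1 to 4 and 15.2, 21.4, 17.8 and 15.7 CPM in AAV-Trib3 replicates 1 to 4. Every AAV-Trib3 library lay above every control, although AAV-GFP replicate 4 came within 1 CPM of the lowest of them. The means were 9.89 ± 3.87 and 17.6 ± 2.81 CPM (SD, n = 4). The fitted fold change was 1.76, with a 95% interval from 1.18 to 2.64, or 0.82 ± 0.26 (SE) on the log2 scale. The unadjusted p of edgeR's quasi-likelihood test was 0.0104, rank 71 of the 11036 genes tested, and the adjusted p was 0.9995. Raw counts behind these levels ran from 69 to 292 per library.

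Psmb9 (ENSMUSG00000096727; mm10 chromosome 17, bases 34181988 to 34187764, minus strand) encodes beta1i and lies beside Psmb8 in the MHC class II region. It stood at 3.86, 3.92, 2.67 and 10.6 CPM in AAV-GFP and at 3.05, 5.28, 5.41 and 4.52 CPM in AAV-Trib3. The groups overlapped, and AAV-GFP replicate 4 stood far above the other 7 libraries. The log2 fold change was -0.22 ± 0.41 (SE; edgeR, unadjusted p = 0.603) and turned to 0.39 (unadjusted p = 0.202) without AAV-GFP replicate 4. Psmb9 shares 212 exonic bases with Tap1 on the opposite strand, and the protocol names no step that keeps strand, so reads there cannot be assigned to either gene. Tap1 itself averaged 11.1 ± 4.98 CPM in AAV-GFP and 10.4 ± 0.486 CPM in AAV-Trib3 (SD, n = 4).

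Psmb10 (ENSMUSG00000031897; mm10 chromosome 8, bases 105935728 to 105938392, minus strand) encodes beta2i, with trypsin-like activity. Its level was 15.3, 11.6, 10.3 and 22.2 CPM in AAV-GFP and 16.7, 20.5, 17.0 and 16.3 CPM in AAV-Trib3. The control values spanned those of AAV-Trib3 on both sides. The log2 fold change was 0.24 ± 0.23 (SE; edgeR, unadjusted p = 0.317), and 0.50 (unadjusted p = 0.0220) without AAV-GFP replicate 4. In all 3 immunoproteasome genes AAV-GFP replicate 4 was the highest control and AAV-GFP replicate 3 the lowest. Without replicate 4 the log2 fold change of Psmb8 was 1.08 (unadjusted p = 0.00115), and without AAV-GFP replicate 3 it was 0.67 (unadjusted p = 0.0251).

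The constitutive counterparts differed by far less. Psmb5, which encodes beta5, was at 46.1, 39.8, 39.1 and 38.4 CPM in AAV-GFP and at 40.9, 40.5, 39.6 and 45.9 CPM in AAV-Trib3. The groups overlapped almost fully, and the log2 fold change was 0.03 ± 0.12 (SE), with a 95% interval of the fold from 0.851 to 1.23. Psmb6, which encodes beta1, was at 68.8, 65.3, 62.8 and 70.9 CPM in AAV-GFP and at 70.3, 76.4, 73.2 and 69.6 CPM in AAV-Trib3. AAV-GFP replicate 4 lay above the lowest AAV-Trib3 libraries, and the log2 fold change was 0.11 ± 0.11, with a 95% interval of the fold from 0.911 to 1.28. Psmb7, which encodes beta2, was at 92.8, 77.1, 82.2 and 87.6 CPM in AAV-GFP and at 87.3, 91.9, 86.0 and 86.2 CPM in AAV-Trib3. The control values again enclosed the others, and the log2 fold change was 0.05 ± 0.12, with a 95% interval of the fold from 0.865 to 1.24. Each upper bound lay below the Psmb8 estimate of 1.76 but above the lower bound of its interval, 1.18, and the difference between genes was not tested. Psmb5, Psmb6 and Psmb7 have 1, 2 and 1 named pseudogenes in GENCODE M21, and how the counting treated reads shared with them is not given in the sources used here. Psmb7 also shares 405 exonic bases with Nek6 on the opposite strand, with between 260 and 625 Nek6 counts per library, and Psmc3 and Psmd13 share 215 and 342 with the expressed genes Slc39a13 and Sirt3.

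**Figure D2:**
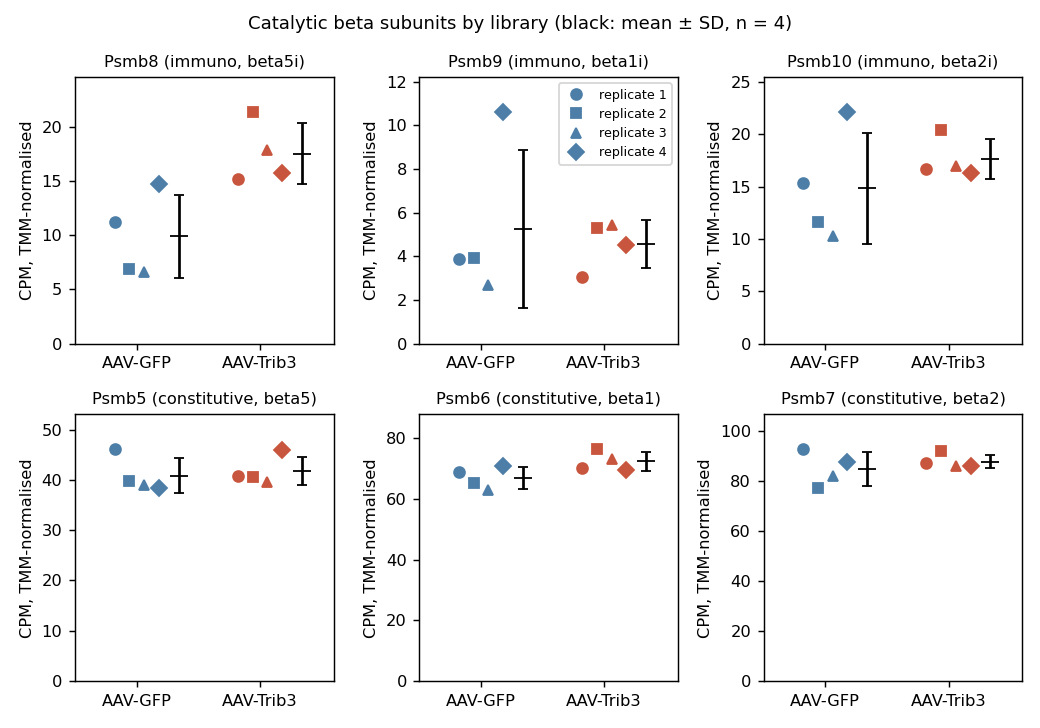
TMM-normalised CPM of the 3 immunoproteasome subunits (top) and their constitutive counterparts (bottom) in each library; points are libraries, shapes are replicate numbers and black marks give mean ± SD (n = 4). The AAV-Trib3 points of Psmb8 sit above all AAV-GFP points, whereas in the other panels the groups overlap and AAV-GFP replicate 4 (diamond) tops the controls of Psmb9 and Psmb10.

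The immunoproteasome genes varied widely between control libraries. The coefficient of variation in AAV-GFP was 68.6% for Psmb9, 39.1% for Psmb8 and 35.8% for Psmb10, the highest 3 of the 46 genes. Counting error alone would give 13.7%, 9.38% and 7.58%. The median over the 14 constitutive 20S genes was 8.33% in AAV-GFP and 5.92% in AAV-Trib3. In AAV-Trib3 the immunoproteasome genes had 23.8% for Psmb9, 16.0% for Psmb8 and 10.8% for Psmb10, ranks 1, 6 and 15 of 46. Whether the spread differed between groups was not tested.

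**Figure D3:**
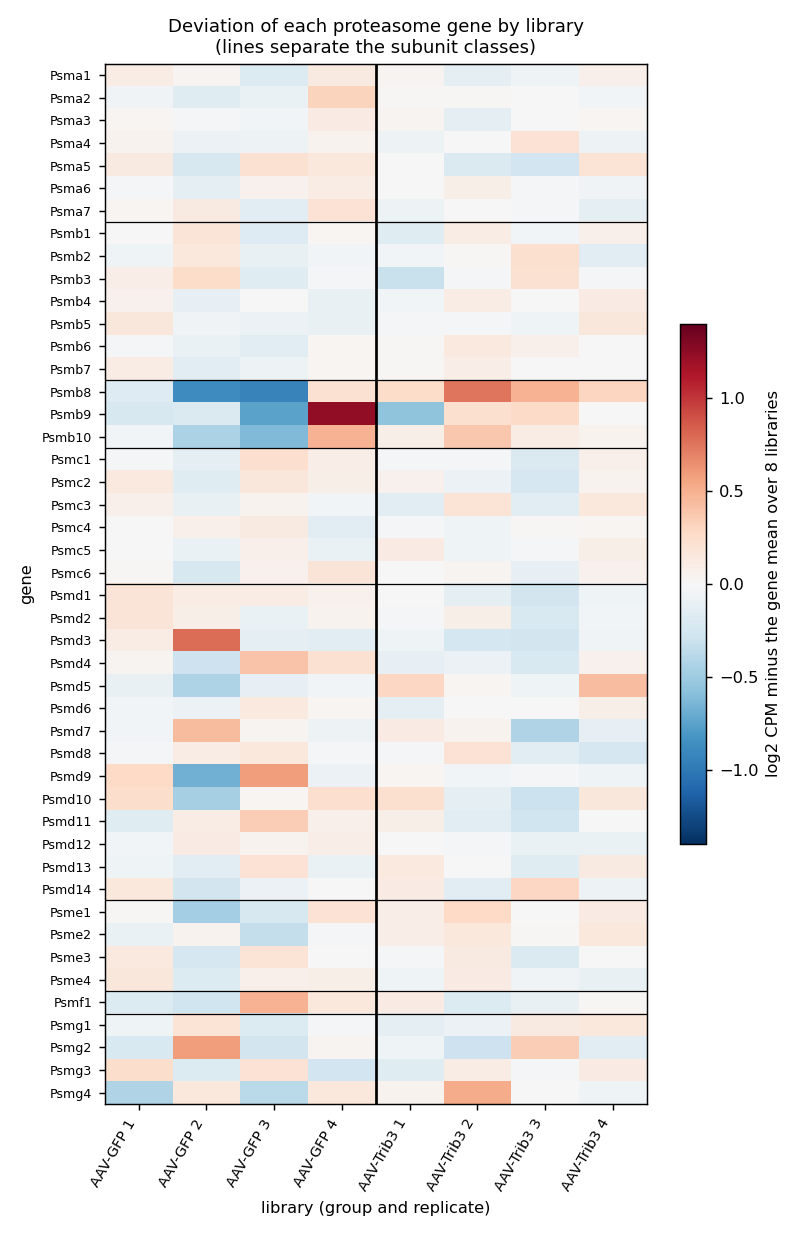
Log2 CPM of each tested proteasome gene in each library, as the deviation from that gene's mean over the 8 libraries (red above, blue below), with lines between subunit classes. The immunoproteasome rows are the most strongly coloured, blue in AAV-GFP replicates 2 and 3 and, for Psmb9, deepest red in AAV-GFP replicate 4; Psmd3 is red in AAV-GFP replicate 2.

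Levels of different genes were compared per length, as CPM per kilobase of the longest principal coding transcript in GENCODE M21. The highest means in AAV-GFP and AAV-Trib3 were those of Psmb6 (83.9 and 90.7), Psmb7 (73.2 and 75.8) and the alpha subunit Psma4 (69.1 and 70.6). Psmb5 stood at 45.4 and 46.4. Of the immunoproteasome genes Psmb10 was at 11.3 and 13.4, Psmb8 at 6.08 and 10.8, and Psmb9 at 3.89 and 3.38, the lowest of all 46 genes in either group. The class medians were 51.3 and 48.9 for the constitutive 20S core, 36.1 and 36.3 for the 19S ATPases, 31.9 and 27.1 for the 19S non-ATPase genes, and 7.21 and 6.95 for the Psmg assembly chaperones.

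On this scale Psmb8 made up 11.9%, 8.78%, 8.58% and 17.5% of the sum of Psmb8 and Psmb5 in AAV-GFP, and 17.1%, 22.6%, 19.9% and 15.9% in AAV-Trib3. The groups overlapped, because AAV-GFP replicate 4 exceeded 2 of the AAV-Trib3 libraries. The means were 11.7% ± 4.16 and 18.9% ± 2.99 (SD, n = 4). By the deposited FPKM the same share was smaller, 5.18% ± 2.003 and 8.72% ± 1.56, and overlapped in the same libraries. The corresponding share of Psmb9 over Psmb9 and Psmb6 averaged 4.30% ± 2.58 in AAV-GFP and 3.57% ± 0.747 in AAV-Trib3. That of Psmb10 over Psmb10 and Psmb7 averaged 13.2% ± 3.59 and 15.0% ± 0.967.

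The deposited FPKM gave the 3 immunoproteasome genes together 13.4%, 11.6%, 10.4% and 20.05% of all catalytic beta transcripts in AAV-GFP and 15.7%, 18.8%, 16.8% and 15.1% in AAV-Trib3. The mean difference was 2.78 percentage points, within the spread between control libraries (SD 4.31, n = 4). Per kilobase of GENCODE transcript the means were 9.35% ± 3.26 and 11.4% ± 1.13. The 2 scales differ because the length behind the deposited FPKM is near the transcript length in some genes only. It was 871 against 899 bases for Psmb5 and 1270 against 1311 for Psmb10. It was longer for Psmb6 (3107 against 798), Psmb7 (3560 against 1160), Psmb8 (3848 against 1628) and Psmb9 (6303 against 1352). For 28 of 47 proteasome genes with an FPKM above 0, Psmb6 and Psmb7 included, the FPKM length matched another sum within 1 base. This was the sum of all distinct annotated exons with overlaps counted again. The FPKM length was between 0.324 (Psma2) and 5.35 (Psme1) times the transcript length.

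In the rest of the core particle no gene stood out. The 14 constitutive 20S genes divided into 7 with fold changes above 0 and 7 below, with a median of -0.01 and a range from -0.13 to 0.11 on the log2 scale. Of the alpha subunits, which form the outer rings and gate the channel, 2 of 7 were above 0, and of the constitutive beta subunits 5 of 7. Psma5 had the lowest of these fold changes, -0.13 ± 0.16 (SE), and Psma7 followed at -0.11 ± 0.12. The 95% intervals of the 14 genes reached from a fold of 0.714 (Psma5) to 1.28 (Psmb6). Summed over the 14 genes the level was 791, 759, 723 and 797 CPM in AAV-GFP and 745, 787, 785 and 773 CPM in AAV-Trib3. The groups overlapped, with means of 767 ± 33.7 and 773 ± 19.4 CPM (SD, n = 4).

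The Psmc and Psmd genes are named for the 19S regulatory particle. Fold changes were below 0 in 15 of these 20 genes, against 52.1% of all genes tested. Their median was -0.09 and stayed between -0.10 and -0.05 under the other scalings, filters and tests tried. The 6 ATPases, which unfold substrates and push them into the core, had a median of -0.02, with 4 below 0 and 2 above. Psmc2 was the lowest at -0.11 ± 0.13 (SE). The 14 non-ATPase genes had a median of -0.11, with 11 below 0 and 3 above. The names cover 3 assembly chaperones that are not parts of the finished particle, Psmd5, Psmd9 and Psmd10. Without them 13 of 17 genes were below 0, with a median of -0.09 and summed levels of 1106 ± 26.0 CPM in AAV-GFP and 1030 ± 53.8 CPM in AAV-Trib3 (SD, n = 4). No Psmc or Psmd gene passed the adjusted test. The summed level of the 20 genes was 1159, 1145, 1212 and 1136 CPM in AAV-GFP and 1123, 1108, 1004 and 1122 CPM in AAV-Trib3. After TMM scaling the groups did not overlap in this sum, with means of 1163 ± 33.9 and 1089 ± 57.4 CPM (SD, n = 4), and AAV-Trib3 replicate 3 was the lowest library. The gap was narrow, from 1123 CPM in the highest AAV-Trib3 library to 1136 CPM in the lowest control. How often sums of other genes fail to overlap was not counted. With library size alone the groups overlapped in each of these genes, and the sum was not taken on that scale.

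Psmd1 (mm10 chromosome 1, bases 86064387 to 86139151, plus strand), a large scaffold subunit of the 19S base also called Rpn2, was at 123, 117, 117 and 113 CPM in AAV-GFP and at 109, 99.4, 91.2 and 104 CPM in AAV-Trib3. All AAV-Trib3 libraries lay below all controls. The log2 fold change was -0.22 ± 0.12 (SE), with an unadjusted p of 0.0919 by edgeR and a 95% interval of the fold from 0.717 to 1.03. Psmd2, the other large base scaffold and a docking site for ubiquitin-like domains, had -0.10 ± 0.13.

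Psmd3, a lid subunit, was at 67.6, 109, 57.9 and 56.7 CPM in AAV-GFP and at 60.5, 53.0, 52.6 and 61.0 CPM in AAV-Trib3. AAV-GFP replicate 2 was far above the other controls, which overlapped with AAV-Trib3. The log2 fold change was -0.35 ± 0.21 (SE; edgeR, unadjusted p = 0.122), and -0.09 without AAV-GFP replicate 2. Other lid subunits had -0.19 ± 0.15 (Psmd11), -0.18 ± 0.17 (Psmd7, the partner of the deubiquitinase Psmd14) and -0.11 ± 0.11 (Psmd12). Psmd7 had -0.05 without AAV-GFP replicate 2 and -0.085 when AAV-Trib3 replicate 3 was left out, and Psmd11 had -0.09 without AAV-GFP replicate 3. Psmd14 itself, which removes ubiquitin chains at the entrance of the core, had 0.10 ± 0.14. Psmd4, a receptor for ubiquitin chains, had -0.20 ± 0.16, with -0.30 (edgeR, unadjusted p = 0.0392) without AAV-GFP replicate 2 and -0.09 without AAV-GFP replicate 3.

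Psmd5 (mm10 chromosome 2, bases 34849734 to 34874968, minus strand) encodes, like Psmd9 and Psmd10, a chaperone of 19S base assembly. It was at 19.1, 15.3, 18.99 and 19.95 CPM in AAV-GFP and at 25.2, 20.9, 19.7 and 27.8 CPM in AAV-Trib3. Only AAV-Trib3 replicate 3 fell within the control range, just below AAV-GFP replicate 4. The means were 18.3 ± 2.09 and 23.4 ± 3.76 CPM (SD, n = 4). The log2 fold change was 0.35 ± 0.15 (SE; edgeR, unadjusted p = 0.0439) and ranged from 0.26 to 0.43 with each library left out in turn. Its unadjusted p exceeded 0.05 in 5 of these 8 fits, reaching 0.139, and was 0.057 with the replicate block, 0.052 by limma-voom and 0.167 with library size alone. The other base chaperones had -0.13 ± 0.23 (Psmd9) and -0.04 ± 0.21 (Psmd10). The Psmg chaperones, which assemble the alpha ring, had 2 fold changes above 0 and 2 below, with a median of 0.02. Psmg4 had 0.25 ± 0.26, on between 2.10 and 4.03 CPM per library.

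Among the activators, Psme1 and Psme2 encode the alpha and beta chains of PA28, an interferon-inducible cap that is often found on immunoproteasomes. Psme1 was at 40.3, 28.8, 34.1 and 46.1 CPM in AAV-GFP and at 42.8, 48.3, 39.9 and 43.2 CPM in AAV-Trib3. Psme2 was at 10.9, 12.1, 9.24 and 11.5 CPM in AAV-GFP and at 12.4, 12.9, 11.8 and 12.9 CPM in AAV-Trib3. Both overlapped between the groups, Psme2 by 1 library on either side. The log2 fold changes were 0.22 ± 0.16 (SE; edgeR, unadjusted p = 0.198) for Psme1 and 0.20 ± 0.13 (unadjusted p = 0.171) for Psme2. The nuclear activator Psme3 and the activator Psme4, also called PA200, had -0.06 ± 0.14 and -0.06 ± 0.13. Psmf1, an inhibitor of the core particle in vitro, had -0.11 ± 0.18.

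The wider ubiquitin and proteasome pathway was read from 4 fixed lists, and none of their genes passed the adjusted test. Among 11 other proteasome genes 6 fold changes were above 0 and 5 below, with a median of 0.07, and 1 gene in each direction had an unadjusted p under 0.05, against 1.36% of all genes above 0 and 1.78% below. Pomp, the maturation protein that helps complete the core particle, was at 40.6, 46.5, 34.2 and 45.6 CPM in AAV-GFP and at 53.5, 63.6, 45.8 and 63.4 CPM in AAV-Trib3. Only AAV-GFP replicate 2 reached the lowest AAV-Trib3 library, and the log2 fold change was 0.44 ± 0.16 (SE; edgeR, unadjusted p = 0.0185). AI314180, the table's symbol for Ecpas, the ECM29 adaptor that binds proteasomes, was at 90.9, 81.4, 90.8 and 87.6 CPM in AAV-GFP and at 77.4, 70.0, 72.7 and 72.9 CPM in AAV-Trib3. The groups did not overlap, as in 2.29% of all genes, and the log2 fold change was -0.26 ± 0.11 (edgeR, unadjusted p = 0.0415). Shfm1, the smallest 19S subunit, had 0.14 ± 0.12.

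Of 15 ubiquitin and conjugation genes 9 were above 0 and 6 below, with a median of 0.01 and none at an unadjusted p under 0.05. Rps27a, a ubiquitin fusion gene, had a log2 fold change of 0.25 ± 0.21 (SE). Of 8 tested genes around NFE2L1, the factor that raises proteasome genes when proteasome activity is short, 3 were above 0 and 5 below, with a median of -0.07. Nfe2l1 had 0.22 ± 0.21, its partner Mafk -0.40 ± 0.27 and the repressor Bach1 -0.50 ± 0.28, none at an unadjusted p under 0.05. Bach1 was at 103 CPM in AAV-GFP replicate 1, against 44.8, 54.6 and 56.8 CPM in the other controls. In AAV-Trib3 it lay between 30.3 and 56.1 CPM.

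Antigen processing and interferon genes, the pathway in which the immunoproteasome takes part, had 10 fold changes above 0 and 8 below among 18, with a median of 0.0041 and none at an unadjusted p under 0.05. The smallest p-values were those of the interferon regulatory factor Irf2 (0.25 ± 0.14 SE; edgeR, unadjusted p = 0.110), the MHC class I gene H2-D1 (0.29 ± 0.17, unadjusted p = 0.115) and Irf9, a factor of interferon signalling (0.22 ± 0.15, unadjusted p = 0.187). H2-D1 averaged 423 ± 84.0 CPM in AAV-GFP and 518 ± 18.9 CPM in AAV-Trib3 (SD, n = 4).

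Immunoproteasome genes are expressed strongly in immune and endothelial cells, so markers of the other cells of the liver were summed in each library. In bulk RNA fewer cells of a type and less RNA per cell cannot be told apart. The 12 macrophage and Kupffer cell markers summed to 12.7, 84.7, 9.10 and 77.8 CPM in AAV-GFP and to 105, 12.1, 24.2 and 68.8 CPM in AAV-Trib3, and all 12 were detected. The 11 tested had 9 fold changes above 0 and 2 below. Psmb8 was highest in AAV-Trib3 replicates 2 and 3, where these sums were 12.1 and 24.2 CPM. In AAV-GFP replicate 2 it was 6.93 CPM, and the sum was 84.7 CPM. Among the controls Psmb8 was highest in replicate 4, at 14.8 CPM with a sum of 77.8 CPM. It was lowest in AAV-GFP replicate 3, at 6.64 CPM, where the sum was also the lowest, 9.10 CPM. A relation between Psmb8 and these sums was not tested.

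Sinusoidal endothelial markers (10 genes) summed to between 17.6 and 81.0 CPM in AAV-GFP and between 36.7 and 61.1 CPM in AAV-Trib3. Stellate cell markers (10 genes) summed to between 4.91 and 43.9 CPM and between 15.3 and 24.4 CPM. Both sums were highest in AAV-GFP replicate 4, the library in which Psmb9 and Psmb10 were highest. Both were lowest in AAV-GFP replicate 3, the lowest control for each immunoproteasome gene. In AAV-GFP replicate 2 the sums were 56.3 and 38.2 CPM, with Psmb8 at 6.93, Psmb9 at 3.92 and Psmb10 at 11.6 CPM. Lymphocyte, leukocyte and dendritic cell markers (16 genes) summed to between 2.24 and 8.91 CPM in AAV-GFP and between 3.74 and 8.04 CPM in AAV-Trib3, with Ms4a1, a B cell marker, at 0 in all libraries. This sum too was highest in AAV-GFP replicate 4 and lowest in AAV-GFP replicate 3, and it was 7.23 CPM in AAV-GFP replicate 2. Cholangiocyte markers (8 genes, with Cftr at 0) summed to 15.6, 17.6, 14.7 and 16.2 CPM in AAV-GFP and to 24.5, 12.8, 36.6 and 31.0 CPM in AAV-Trib3. The sum was above all controls in every AAV-Trib3 library but replicate 2. Psmb8 was above all controls in replicate 2 and also in the AAV-Trib3 libraries with the higher sums. All 3 cholangiocyte markers tested had fold changes above 0, with a median of 0.81, and Sox9 had 1.18 ± 0.41 (SE; edgeR, unadjusted p = 0.0162). Of the other lists, the tested endothelial markers had 5 above 0 and 5 below. Only 4 of the 10 stellate markers were tested, with 1 above and 3 below. Of the 16 leukocyte markers only 2 were tested, with 2 above and 0 below. The part of these cells in the levels of the immunoproteasome genes was not tested.

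**Figure D4:**
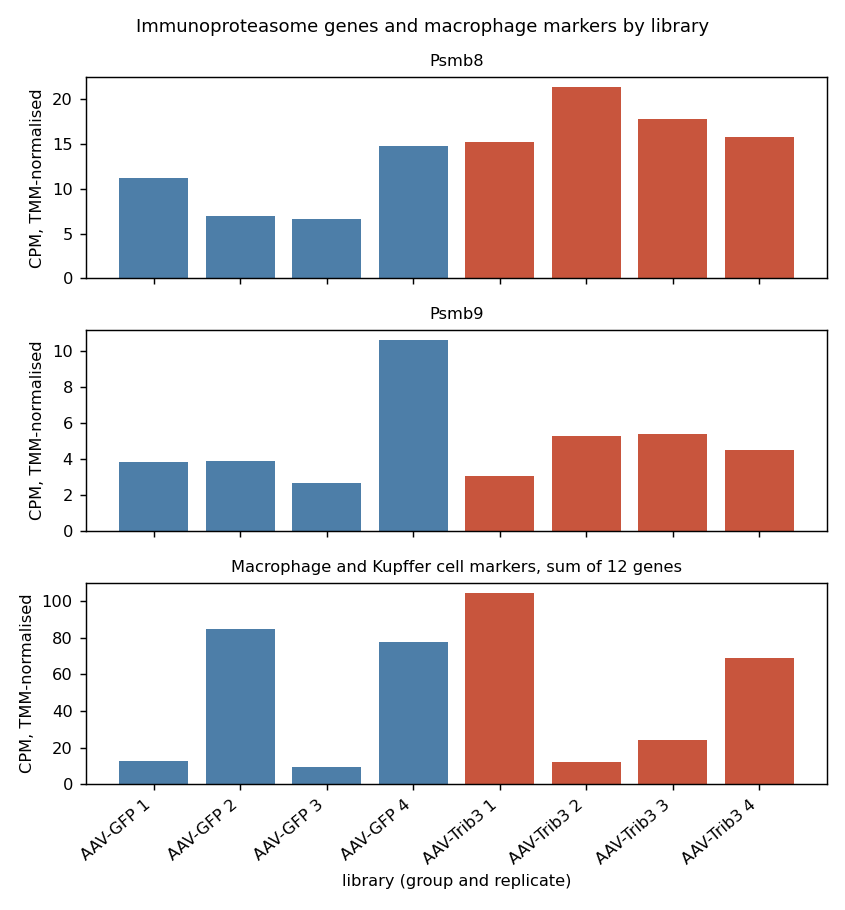
TMM-normalised CPM of Psmb8, Psmb9 and the sum of 12 macrophage and Kupffer cell markers in each library (blue, AAV-GFP; red, AAV-Trib3); each bar is 1 library. AAV-Trib3 replicate 2 has 21.4 CPM of Psmb8 and 12.1 CPM of markers, and AAV-GFP replicate 2 has 6.93 and 84.7 CPM. AAV-GFP replicate 3 is lowest in both, at 6.64 and 9.10 CPM, and AAV-GFP replicate 4 has 14.8 and 77.8 CPM.

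With each library left out in turn, the log2 fold change of Psmb8 lay between 0.67 and 1.08, with unadjusted p-values of edgeR's test from 0.00115 to 0.0314. Without AAV-GFP replicate 2, the library rich in mitochondrial reads, it was 0.69 (unadjusted p = 0.0276). That of Psmb10 lay between 0.10 and 0.50, and that of Psmb9 between -0.44 and 0.39. Psmb8 was the sole proteasome gene with an unadjusted p under 0.05 in all of these 8 fits. The fits have most of their libraries in common, and the share of all genes that stayed under 0.05 throughout was not counted.

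**Figure D5:**
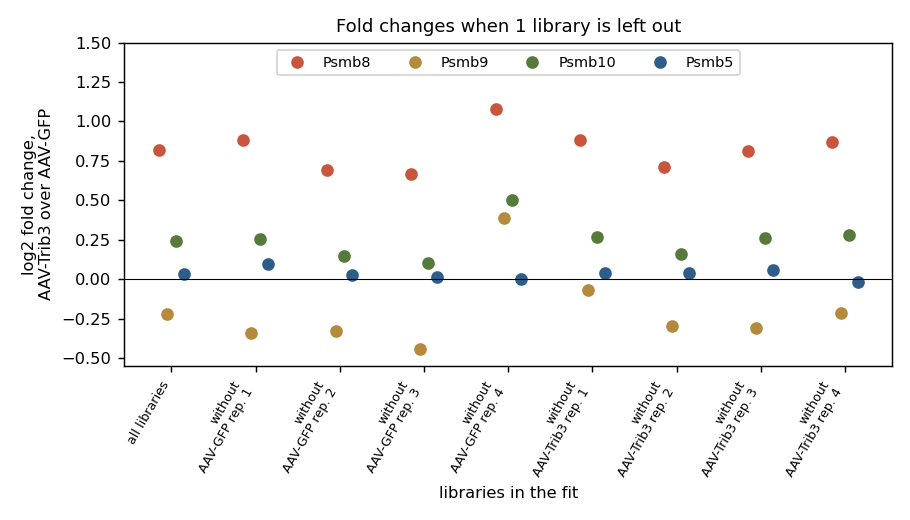
Log2 fold change of Psmb8, Psmb9, Psmb10 and Psmb5 with all libraries and with any 1 of the 8 libraries removed; each point is 1 edgeR fit and the line marks 0. Psmb8 stays between 0.67 and 1.08, whereas Psmb9 changes sign without AAV-GFP replicate 4.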

How the data were processed

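Per the file headers, each of the 8 libraries has gene counts and FPKM in the deposited table. All tests used the deposited counts, which are unnormalised whole numbers, and the deposited FPKM were used for shares per length. The submitters' processing notes name Trimmomatic and mm10; the aligner, the counting program, its use of strand and the annotation were not given in the sources used here. Titles gave the groups and replicate numbers.

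Genes were filtered with filterByExpr (11036 kept), scaled by TMM and tested with edgeR's quasi-likelihood test (robust, no covariate), AAV-Trib3 against AAV-GFP, with Benjamini-Hochberg adjustment over all tested genes and a threshold of 0.05. Standard errors were obtained from fold changes and F statistics, and 95% intervals from the t quantile at edgeR's degrees of freedom. Levels are TMM-normalised CPM; log2 CPM used a prior count of 2. Class counts and medians are descriptions without a test. Counts cover PCR reads without molecular identifiers, and counting errors cover sampling alone.

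The members, classes and gene lists were chosen with earlier results of these data known. The rule for named genes took Psmb8, Psmb9, Psmb10, Psmb5, Psmb6, Psmb7, Psme1, Psme2, the 12 other members with the smallest p, up to 3 genes of each pathway list and Trib3; some of the pathway genes are left out of this account. Tap1, the proteasome genes named beside these, the transcript-length scale and the 19S tally without assembly chaperones were chosen after values had been seen. Of the listed symbols Sem1, Ecpas, Nub1l and Ufd1 were carried under another symbol, and Paaf1 was not matched. The test was checked on simulated counts. Alternatives were other scalings, DESeq2, limma-voom, other filters, robust estimation off, a replicate block and each library left out. Software was R 4.3.3, edgeR 4.0.16, limma 3.58.1, DESeq2 1.42.0, Python 3.11.15 and matplotlib 3.10.9. Sequences are RefSeq's.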

Additional observations from a re-analysis of the deposited data

Results flagged for a closer look

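In each group of 4 libraries, the gap of the highest or lowest library to its nearest neighbour was set against the whole range, and 4 of 114 values passed Dixon's 95% critical value. Chance alone passes about 1 group in 20, so a number of this size carries no weight by itself. Psmb9 was at 10.6 CPM in AAV-GFP replicate 4, against 2.67 to 3.92 CPM in the other controls. Psmb10 was at 20.5 CPM in AAV-Trib3 replicate 2, against 16.3 to 17.0 CPM in the rest of that group. Psmg4, an alpha ring assembly chaperone, was at 4.03 CPM in AAV-Trib3 replicate 2, against 2.70 to 2.92 CPM. The summed 19S genes were at 1004 CPM in AAV-Trib3 replicate 3, against 1108 to 1123 CPM.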

How the results depend on the processing

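No proteasome gene passed an adjusted p of 0.05 in any setting tried. The number at an unadjusted p under 0.05 was 2 and became 1 with library size alone, with limma-voom and with the replicate block. The share of all genes at this threshold was 3.14%, and 2.03%, 3.14% and 2.04% in these settings. With each library left out the number ranged from 1 to 3, and the share of all genes from 2.36% to 5.05%. The number whose groups do not overlap was 2, became 0 with library size alone, and ranged from 2 to 5 with each library left out. Smaller groups fail to overlap more readily. The share of all genes without overlap was counted with all libraries and TMM scaling alone, where it was 2.29%. With 1 library left out the median log2 fold change ranged from -0.11 to -0.03 for the 19S genes, from -0.02 to 0.02 for the constitutive 20S genes and from 0.10 to 0.50 for the immunoproteasome genes. The immunoproteasome share by FPKM differed by 1.62 to 4.84 points. Psmb8 kept an unadjusted p under 0.05 in every setting, with log2 fold changes from 0.67 to 1.08. The share of all genes that did so was not counted. Trib3 passed the adjusted test with DESeq2 (4.20, adjusted p = 2.2e-17) and without AAV-Trib3 replicate 4 (4.42, adjusted p = 0.0206), and its log2 fold change ranged from 3.91 to 4.42 with each library left out. Of 340 single-gene values over 20 genes, 337 kept their direction and side of the threshold, and 3 reversed: Psmb9 at 0.39 (range from -0.44) and Psmb5 at -0.0023, both without AAV-GFP replicate 4, and Psmb5 at -0.017 when AAV-Trib3 replicate 4 was removed. The causes were not tested. Same-numbered libraries did not deviate together (r from -0.27 to -0.03), so the numbers were not taken as pairs; with the replicate block Psmb8 had 0.88 (edgeR, unadjusted p = 0.0195). Levels under about 5 CPM, as of Psmb9 and Psmg4, rest on few counts.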

Other observations

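In some proteasome genes the control libraries varied, whereas the AAV-Trib3 values lay closer together than counting error would place them. Psmd9, a chaperone of 19S base assembly, was at 35.9, 18.6, 44.4 and 28.0 CPM in AAV-GFP and at 30.2, 28.8, 29.0 and 28.4 CPM in AAV-Trib3. The coefficient of variation was 34.8% in AAV-GFP, rank 4 of the 46 proteasome genes, and 2.72% in AAV-Trib3, rank 44. Psma2, a subunit of the alpha ring, had 15.7% and 1.997%. In AAV-Trib3 counting error alone would give 4.89% for Psmd9 and 3.98% for Psma2, more than was seen. Such closeness therefore does not show a tighter level in AAV-Trib3. The median over all 46 genes was 11.1% in AAV-GFP and 8.44% in AAV-Trib3. The difference in spread was not tested, and these genes were picked after their values had been seen.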
